A study of Homo sapiens with 51 samples.

Results

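The 39 HOX genes of the human genome were followed through differentiation of H1 human embryonic stem cells, an established pluripotent line. Members were taken as every row of the count matrix whose gene symbol is HOX, a cluster letter from A to D and a paralogue number, which gave 39 of 58051 gene rows. By cluster, 11 belong to HOXA, 10 to HOXB, 9 to HOXC and 9 to HOXD. The groups were cells given BMP4 at 50 ng/mL, cells given BMP4 at 10 ng/mL plus Activin at 100 ng/mL, here Activin+BMP4, and untreated cells kept in mTeSR. Both treatments were sampled at 1, 6, 12, 24, 36, 48, 72 and 96 h in TeSR E5 with insulin at 3.2 µM, FGF2 at 20 ng/mL and LY29004 at 1 µM, so medium and additives also separate the treated from the untreated cells. The BMP4 dose differed between the treatments as well as the presence of Activin. With 3 libraries in each of 17 groups, 51 libraries were available. Whether the libraries of a group came from separate cultures is not in the labels. The p-values therefore describe the spread among these samples, and that spread may be technical.

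HOX genes encode homeodomain transcription factors that give cells of the embryo their position along the head-to-tail axis. They lie in clusters in which the gene with the lowest paralogue number sits at the 3′ end, and in vertebrate embryos the 3′ genes are in general switched on earlier and further towards the head than the 5′ genes, an order known as collinearity. In embryonic stem cells the clusters are held silent by Polycomb proteins. CDX factors, WNT signals and retinoic acid open them, and TALE proteins of the PBX, MEIS and PKNOX families bind DNA together with HOX proteins.

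In GENCODE 29 coordinates (GRCh38) the HOXA cluster lies on chromosome 7, and the HOXB cluster occupies chr17:48528526-48729178, the HOXC cluster chr12:53938765-54056030 and the HOXD cluster chr2:176092891-176190907. Annotated exons of 17 members overlap an exon of another gene on the same strand, among them HOXB3 with HOXB4 and HOXB6, HOXC4 with HOXC6, HOXC6 with HOXC9, and HOXD10 with HOXD11. For 19 members, in part the same ones, annotated exons overlap an exon on the opposite strand. How reads of such stretches were divided is not given in the sources used here, so the values of these genes are uncertain, and a difference between overlapping neighbours is not read as a difference between genes.

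Library totals ran from 22788905 to 30354633 counts, with a median of 24944617. Expression is given as CPM, the count of a gene relative to the scaled total of its library. Calls rest on edgeR's quasi-likelihood test over 19603 genes, and needed both an adjusted p (Benjamini-Hochberg) under 0.05 and a log2 fold change of 1 or more in either direction. Of the 39 members, 23 passed the filter on low counts and 16 did not. Of those 23, 9 would not have passed without the BMP4 libraries of 96 h (HOXA5, HOXA7, HOXA9, HOXA10, HOXA11, HOXB13, HOXC4, HOXC6 and HOXC8). HOXB13 needed libraries of Activin+BMP4 cells as well. Counts over the tested members are therefore a description of the BMP4 group at 96 h. Activin+BMP4 at 48 h replicate 2, Activin+BMP4 at 96 h replicate 3 and BMP4 at 12 h replicate 1 stood further from their group than the other libraries. Without them in turn, the HOX genes called between BMP4 and Activin+BMP4 numbered 9 at 48 h, 23 at 96 h and 0 at 12 h, against 9, 20 and 0 with them. Without BMP4 at 12 h replicate 1, 2 members were called between BMP4 and untreated cells at 12 h, against 1 with it. The filter was set anew without each library, so the members tested could differ as well.

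RefSeq promoter windows (GRCh38.p14, 250 bases before to 50 after the start) were available for 20 of the 39 members, in 26 distinct windows. Of these, 4 are shown because the results turn on their genes: HOXD1 peaked early under both treatments, HOXA13 and HOXB1 stand at the 5′ and 3′ ends of their clusters, and the HOXC4 window, which HOXC5 shares, belongs to a cluster whose genes other than HOXC13 were nearly silent except with BMP4 at 96 h. They lie at chr2:176188418-176188717 (plus strand), chr7:27200042-27200341 (minus), chr17:48530962-48531261 (minus) and chr12:54016638-54016937 (plus). Capitals mark matches, on either strand, to a CDX-type motif (TTTATNG), a HOX-PBX motif (TGATNNAT), a retinoic acid receptor motif (AGGTCA) or a GC-rich SMAD motif (GGCGCC).
HOXD1: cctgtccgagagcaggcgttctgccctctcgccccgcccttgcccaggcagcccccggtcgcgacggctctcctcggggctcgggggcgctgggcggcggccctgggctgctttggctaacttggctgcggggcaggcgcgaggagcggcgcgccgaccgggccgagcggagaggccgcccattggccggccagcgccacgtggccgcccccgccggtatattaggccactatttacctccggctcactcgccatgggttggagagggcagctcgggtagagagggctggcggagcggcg
HOXA13: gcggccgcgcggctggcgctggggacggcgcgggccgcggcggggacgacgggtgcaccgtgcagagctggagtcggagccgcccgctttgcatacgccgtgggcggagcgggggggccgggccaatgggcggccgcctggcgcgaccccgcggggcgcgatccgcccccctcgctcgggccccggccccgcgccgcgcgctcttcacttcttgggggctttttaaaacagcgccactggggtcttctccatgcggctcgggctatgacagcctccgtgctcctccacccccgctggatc
HOXB1: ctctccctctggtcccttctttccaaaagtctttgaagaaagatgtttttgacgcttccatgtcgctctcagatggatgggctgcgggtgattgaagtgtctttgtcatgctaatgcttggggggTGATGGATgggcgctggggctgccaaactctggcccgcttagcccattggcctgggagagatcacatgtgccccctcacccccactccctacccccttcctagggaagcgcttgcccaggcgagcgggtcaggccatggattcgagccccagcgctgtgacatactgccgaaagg
HOXC4: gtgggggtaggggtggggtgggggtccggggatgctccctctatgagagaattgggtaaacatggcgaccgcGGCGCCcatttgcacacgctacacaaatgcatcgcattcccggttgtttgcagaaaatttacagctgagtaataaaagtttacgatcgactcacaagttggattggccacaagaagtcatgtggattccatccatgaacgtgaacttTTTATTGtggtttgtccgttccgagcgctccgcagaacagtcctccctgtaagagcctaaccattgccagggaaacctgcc
The HOXD1 and HOXA13 windows held none of the 4 motifs, the HOXB1 window held 1 TGATNNAT, and the HOXC4 window held 1 TTTATNG and 1 GGCGCC. Among all 26 HOX windows, 6 (23.1%) held TTTATNG, against 9.75% of 34943 promoter windows of the same length. TGATNNAT was present in 3 HOX windows (11.5%) and in 7.42% of all windows, and GGCGCC in 7 (26.9%) and in 19.2%. AGGTCA was found in 0 HOX windows and in 13.8% of all windows. The HOX windows had a median of 22.5 CpG dinucleotides, against 14 in all windows, at a median GC content of 58.0% and 58.7%. Several windows belong to HOXA3, so windows are not independent genes, and a match to a motif is a description of the letters, not a binding site. Of the HOXB and HOXC clusters only the HOXB1 and HOXC4 windows were available, so these shares describe mainly HOXA and HOXD.

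Untreated cells were almost without HOX counts. The 39 genes had 19 counts in all over the 3 untreated libraries, and 32 of them had 0. HOXD1 (5 counts), HOXC13 (7 counts) and the others with any count stayed at or under 0.161 CPM in each untreated library. Summed over the 39 genes, BMP4 cells had 3.03 ± 0.33 CPM at 24 h and 4.62 ± 0.82 CPM at 36 h (SD, n = 3). The sum then climbed to 20.9 ± 0.964 CPM at 48 h, 56.2 ± 2.85 CPM by 72 h and 196.8 ± 18.8 CPM after 96 h. Activin+BMP4 cells stayed between 2.79 and 4.26 CPM at the same times and had 3.14 ± 1.35 CPM at 96 h, against 0.257 ± 0.166 CPM in untreated cells. Bulk libraries cannot tell fewer cells of a type and less RNA per cell apart.

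**Figure D1:**
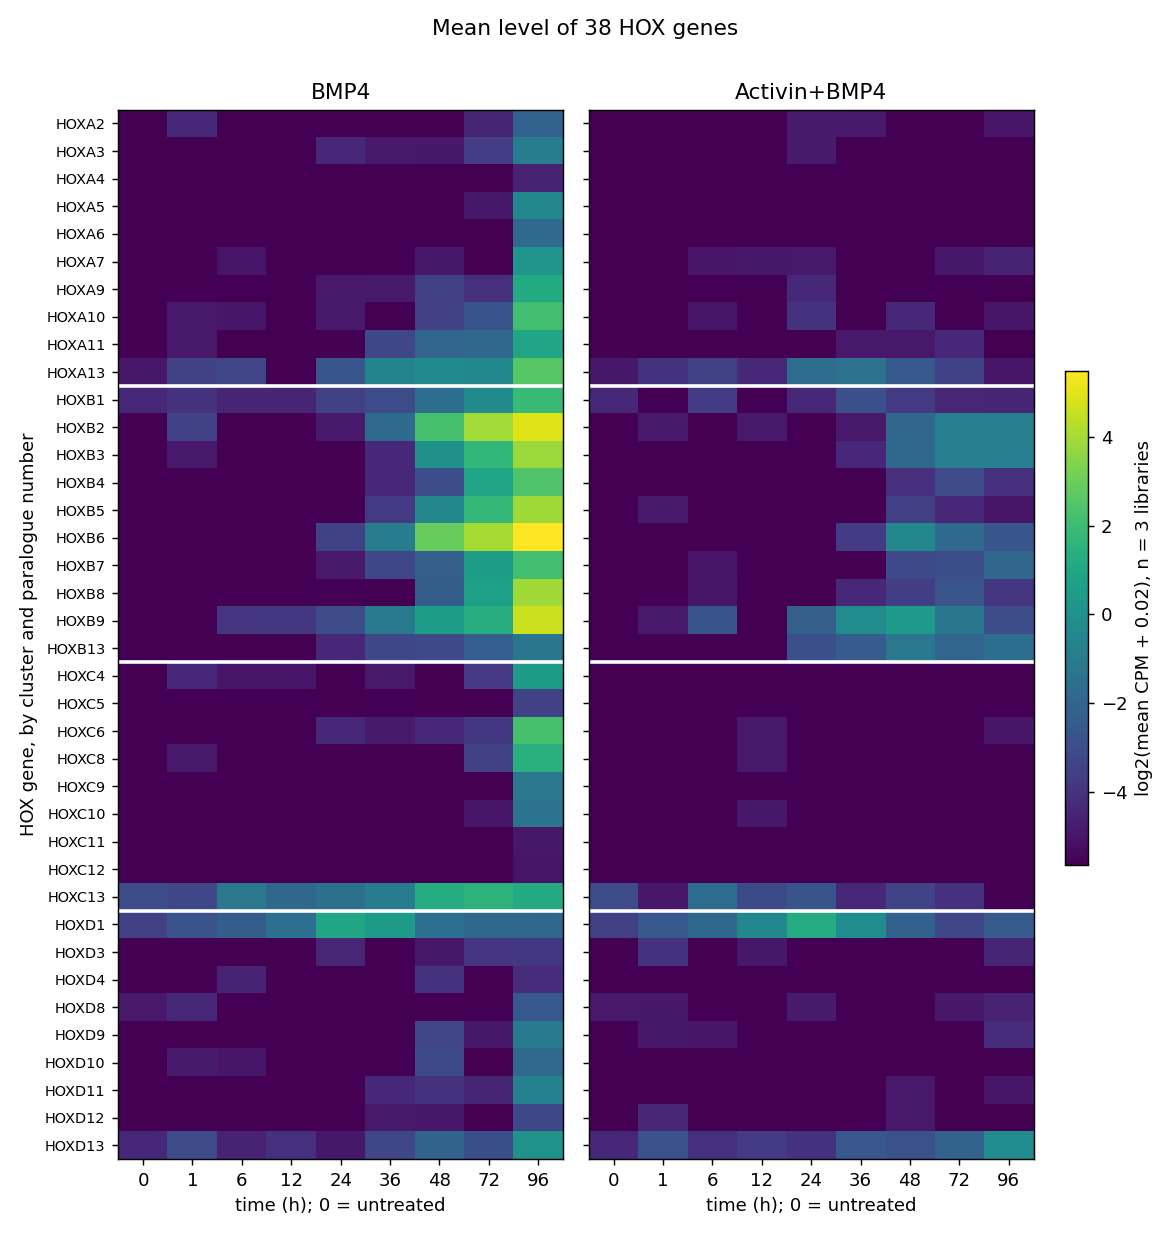
Colour gives the log2 of mean CPM plus 0.02 (n = 3 libraries) for 38 HOX genes, by cluster and paralogue number, over time with BMP4 (left) and Activin+BMP4 (right), with untreated cells at 0 h in both panels. The brightest cells are HOXB genes with BMP4 at 72 and 96 h, and 34 of the 38 genes had their highest mean with BMP4 at 96 h.

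The share of each cluster in the HOX counts changed over time. At 24 h the HOXD cluster, in effect HOXD1, held 65.3% of HOX counts in BMP4 cells and 64.5% in Activin+BMP4 cells. From 48 h on the HOXB cluster held most HOX counts in BMP4 cells, with 78% at 48 h, 82.3% at 72 h and 80% at 96 h. It also held most in Activin+BMP4 cells, with 75.3%, 83.2% and 62.8%, but of far smaller sums. At 96 h the HOXB sum was 157.3 ± 13.4 CPM with BMP4 and 1.98 ± 1.02 CPM under Activin+BMP4. HOXA reached 24.8 ± 3.99 CPM with BMP4, against 0.0586 ± 0.0209 CPM with Activin+BMP4. HOXC had 11.8 ± 2.94 CPM with BMP4, and 1 count over the 3 libraries with Activin+BMP4. HOXD had 2.92 ± 0.864 CPM with BMP4 and 1.09 ± 0.371 CPM under Activin+BMP4. In each cluster the lowest BMP4 library at 96 h lay above the highest Activin+BMP4 library.

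**Figure D2:**
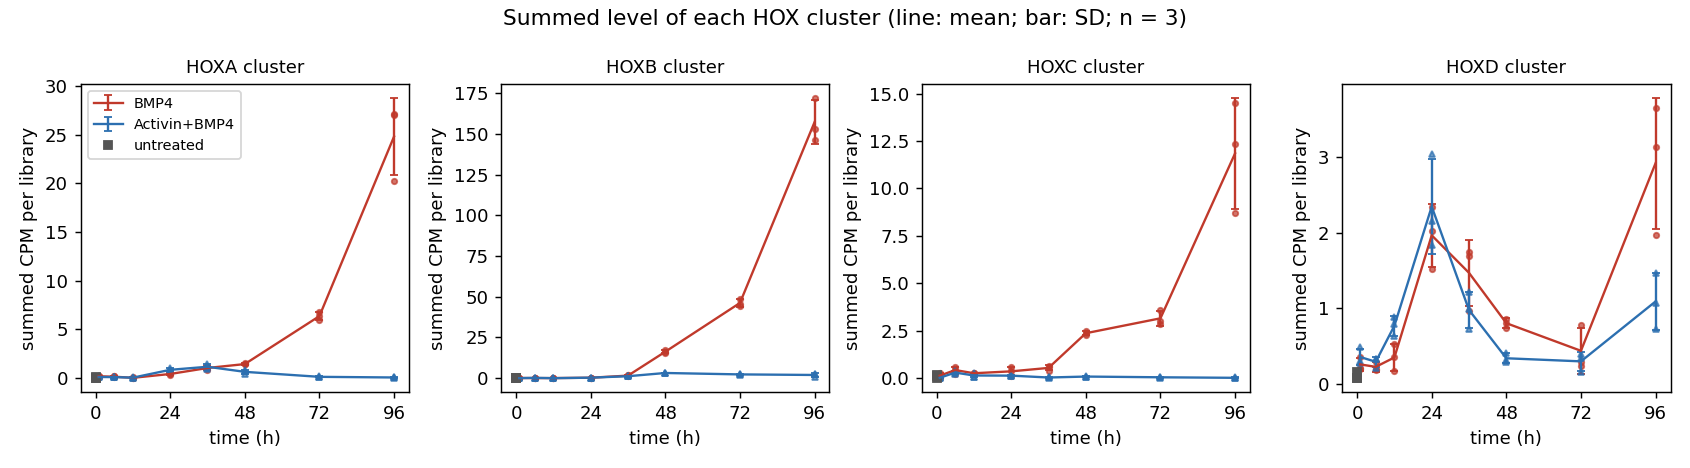
Each panel plots the summed CPM of 1 HOX cluster against time in hours, with a point per library and lines and bars for mean and SD (n = 3), for BMP4, Activin+BMP4 and untreated cells, and each panel has its own vertical scale. HOXA, HOXB and HOXC stand at 24.8, 157.3 and 11.8 CPM with BMP4 at 96 h, while with Activin+BMP4 HOXA and HOXB reach at most 1.16 and 3.2 CPM, at 36 and 48 h, and HOXD has a peak at 24 h under both treatments.

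In BMP4 cells compared with Activin+BMP4 cells, the difference built up over time. No HOX gene was called at 1, 6 or 12 h by edgeR, with 2, 1 and 3 members at an unadjusted p under 0.05, and DESeq2 called 0 at each of these times. Of all genes tested, 0%, 0.189% and 0.658% were called higher at these times, and 0.0051%, 0.316% and 0.765% lower. At 24 h 1 member was called higher and 0 lower (2.41% and 1.6% of all genes). The 36 h libraries gave 4 higher and 1 lower (3.02% and 2.56% of all genes), and those of 48 h gave 8 higher and 1 lower (4.86% and 4.39%). By 72 h 14 were higher and 0 lower (5.07% and 4.56%), and 96 h gave 20 higher and 0 lower (7.62% and 7.95%). The 20 at 96 h were all 7 tested HOXA genes, 9 of 10 HOXB genes and all 4 tested HOXC genes. None of them overlapped between the libraries of the groups, where 27.4% of all tested genes were higher without overlap. Among the 20, HOXA5, HOXA7, HOXA9, HOXA10, HOXA11, HOXC4, HOXC6 and HOXC8 passed the filter only through the BMP4 96 h libraries. Their calls at 96 h were close to fixed by that, so the count of 20 and the shares by cluster are a description only. HOXB13, HOXD1 and HOXD13 were not called at 96 h. Over all 39 members, each had a higher mean with BMP4 at 96 h, and 29 were higher without overlap between the groups. Among the 33128 genes with a count in any of these libraries the shares were 49.3% and 18.2%.

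Against untreated cells, 0, 1, 1, 6, 11, 17, 16 and 23 members were called higher in BMP4 cells, in order of the 8 times. Over all genes the shares called higher were 1.1%, 3.44%, 3.61%, 4.92%, 5.68%, 8.15%, 11% and 14.6%. In Activin+BMP4 cells 0, 2, 1, 5, 7, 10, 9 and 7 members were called higher, against 0.76%, 3.92%, 3.73%, 4.38%, 6.25%, 9.24%, 12.7% and 16.5% of all genes, and 1 was called lower at 96 h (9.96%). Both series by edgeR gave 0 members at 1 h, with 1 at an unadjusted p under 0.05 for BMP4 and 2 for Activin+BMP4, and DESeq2 called 0 and 0. The 7 members higher in Activin+BMP4 cells at 96 h had 9 to 72 counts each. These comparisons share the untreated libraries. The untreated cells were also in another medium, so treatment and medium cannot be told apart.

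HOXB2 and HOXB6 had the highest levels. HOXB2, a hindbrain patterning gene in vertebrate embryos, had 29.3, 33.3 and 29.2 CPM in the BMP4 libraries at 96 h, against 0.63, 0.669 and 0.383 CPM in the Activin+BMP4 libraries. All BMP4 libraries lay far above the others, by a log2 fold change of 5.76 ± 0.22 (SE; edgeR adjusted p = 8.64e-21). HOXB6, a gene of the trunk, had 44.4, 49.9 and 39 CPM with BMP4, against 0.185, 0.201 and 0.0348 CPM with Activin+BMP4 (log2 fold change 8.26 ± 0.26, edgeR adjusted p = 4.17e-20). Together they made up 38.2% of the HOX counts of BMP4 cells at 96 h. Per kilobase of exon, which allows levels to be compared between genes, HOXB6 had 17.1 ± 2.11, HOXB2 13.1 ± 1, HOXB9 9.32 ± 0.809, HOXB5 7.44 ± 0.611 and HOXB8 7.43 ± 0.706 CPM with BMP4 at 96 h. HOXB5 and HOXB8 did not differ beyond their spread, and HOXB6 and HOXB2 differed by more than the SD of either. HOXB7 had 2.81 ± 0.448 CPM per kilobase. HOXB3 exons overlap those of HOXB6, so part of their counts may be shared.

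The rise of HOXB2 and HOXB6 could be followed in every library. At 36 h HOXB6 had 0.308, 0.64 and 0.564 CPM with BMP4, against 0.129, 0.0432 and 0 CPM with Activin+BMP4. By 48 h it stood at 7.33, 8.14 and 7.36 CPM with BMP4, against 0.708, 0.665 and 0.713 CPM with Activin+BMP4, with no overlap and a log2 fold change of 3.44 ± 0.22 (edgeR adjusted p = 5.79e-13). HOXB2 had 5.31, 4.6 and 4.38 CPM with BMP4 at 48 h and 0.315, 0.208 and 0.188 CPM under Activin+BMP4. From 48 h on every BMP4 library had over 100 counts of each gene. The earlier call of HOXB6 at 24 h rests on 5 counts in the BMP4 libraries (3, 0 and 2) and 0 in the Activin+BMP4 libraries, at least 1.64-fold higher against 3 counts in the group as a whole. Its ranges overlapped, and the call was lost with DESeq2 (adjusted p = 0.0616).

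HOXB9, a gene of the posterior trunk, was not called between the treatments up to 48 h. At 36 h it was lower with BMP4 without overlap, though not called. It then had 0.308, 0.512 and 0.484 CPM with BMP4, against 0.816, 0.907 and 0.689 CPM with Activin+BMP4. At 48 h it had 1.08, 1.59 and 1.49 CPM with BMP4 and 1.3, 1.04 and 1.54 CPM under Activin+BMP4, in overlapping ranges. At 96 h it had 24.5, 25.9 and 21.8 CPM with BMP4, against 0.0741, 0.201 and 0.0348 CPM with Activin+BMP4 (log2 fold change 7.77 ± 0.36, edgeR adjusted p = 3.79e-20). In Activin+BMP4 cells it fell between 48 and 72 h by 1.74 on the log2 scale (edgeR adjusted p = 0.000138) and between 72 and 96 h by 1.83 (adjusted p = 0.00934). In BMP4 cells it rose by 3.32 ± 0.24 on the log2 scale between 72 and 96 h.

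The other HOXB genes that were called differed in the same direction. HOXB5 had 15.7, 16.1 and 13.8 CPM with BMP4 at 96 h and 1 count in all with Activin+BMP4. HOXB3 had 11.7, 15.5 and 14.8 CPM with BMP4, against 0.852, 0.636 and 0.0696 CPM with Activin+BMP4, and HOXB7 had 4.15, 5.05 and 3.7 CPM, against 0.371, 0.301 and 0.0348 CPM. For both, the lowest Activin+BMP4 value came from replicate 3, the library that stood apart. Without it the log2 fold change was 4.23 for HOXB3 and 3.66 for HOXB7, against 4.75 and 4.17 with it, and both stayed called. HOXB1, the 3′-most gene of the cluster and in mouse a marker of the fourth hindbrain segment, had 2.92, 3.68 and 4.26 CPM with BMP4 at 96 h, against 0.0371, 0 and 0.0348 CPM with Activin+BMP4. Its level was close to that of HOXB4 (1.46 ± 0.271 and 1.45 ± 0.129 CPM per kilobase).

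**Figure D3:**
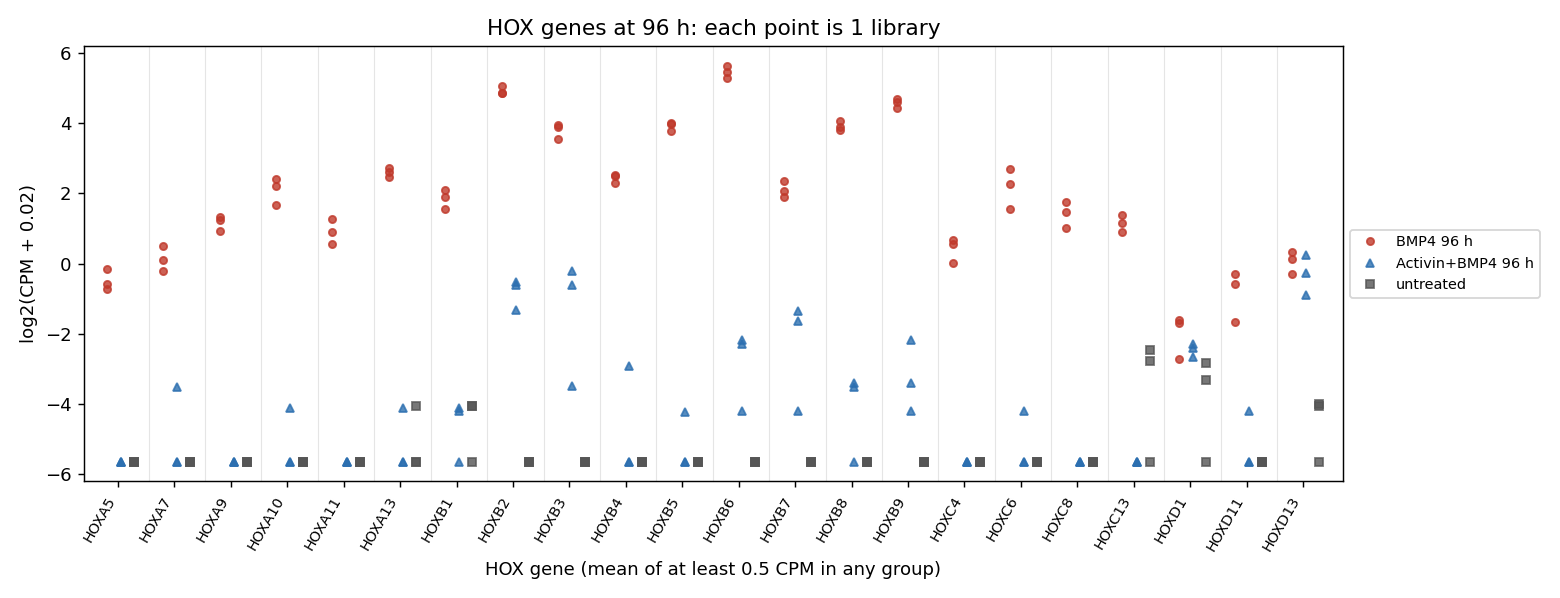
Each point is 1 library at 96 h or untreated, on a scale of log2(CPM + 0.02), for 22 HOX genes with a mean of at least 0.5 CPM in any group, and points on the bottom line are libraries with 0 counts. BMP4 points lie above the Activin+BMP4 points for all but HOXD1 and HOXD13, where the groups overlap.

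In the HOXA cluster, HOXA13 (1.2 ± 0.105 CPM per kilobase) and HOXA10 (1.17 ± 0.294 CPM per kilobase) did not differ beyond their spread with BMP4 at 96 h. HOXA13, the 5′-most gene, known for limb, hindgut and extraembryonic vessels, had 6.03, 6.63 and 5.57 CPM with BMP4 at 96 h, against 0.0371, 0 and 0 CPM with Activin+BMP4. Its ratio over 1 count was 519, with a 95% counting interval of 92.7 to 20500. HOXA10, a posterior gene active in uterus and limb, had 4.65, 5.26 and 3.15 CPM with BMP4 and 0.0371, 0 and 0 CPM under Activin+BMP4. HOXA2, HOXA3, HOXA4, HOXA5 and HOXA6 each averaged under 1 CPM with BMP4 at 96 h.

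In the HOXC cluster HOXC13 was called before 96 h. The other tested HOXC genes, HOXC4, HOXC6 and HOXC8, passed the filter only through the BMP4 96 h libraries, so no order is read from their later calls. HOXC13, the 5′-most gene, known from hair follicle and nail, was called higher than untreated at 6 h, with 0.234, 0.403 and 0.589 CPM in BMP4 libraries and 0.258, 0.237 and 0.368 CPM in Activin+BMP4 libraries, against 0.161, 0 and 0.126 CPM in untreated ones (edgeR adjusted p = 0.00377 for BMP4 and 0.0388 for Activin+BMP4). It was not called at 12 h under either treatment. At 48 h it had 2.25, 2.28 and 2.48 CPM with BMP4, against 0.0786, 0.0416 and 0.113 CPM with Activin+BMP4 (log2 fold change 4.81 ± 0.48, edgeR adjusted p = 7.17e-11). At 72 h it had 2.77, 2.99 and 3.14 CPM with BMP4, and at 96 h 1.84, 2.6 and 2.19 CPM, while the Activin+BMP4 libraries of 96 h had 0 counts. This was lower than in untreated cells by the test (edgeR adjusted p = 0.00279), on 0 counts against 7, at least 2.71-fold lower with 3 counts in the whole group as the floor, and 1 untreated library also had 0.

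The remaining HOXC genes had their highest means with BMP4 at 96 h, which for the tested ones was built in by the filter. HOXC6, a thoracic gene, had 6.42, 4.79 and 2.95 CPM with BMP4 and 1 count over the Activin+BMP4 libraries. HOXC8, a neighbour of like expression in the trunk, had 3.38, 2.74 and 2 CPM with BMP4 and 0 with Activin+BMP4, at least 76.2-fold higher. At 72 h HOXC6 had 4 counts over the 3 BMP4 libraries and HOXC8 had 5, all in replicate 3. In both genes BMP4 replicate 1 was the highest and replicate 3 the lowest at 96 h. HOXC11 and HOXC12 had 1 count each with BMP4 at 96 h, too few to compare, although they lie between HOXC10 (30 counts) and HOXC13 (187 counts).

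In the HOXD cluster the highest sum with Activin+BMP4 came at 24 h, from HOXD1. HOXD1, the 3′-most gene, had 2.03, 1.52 and 2.23 CPM with BMP4 at 24 h and 2.96, 1.79 and 2.11 CPM under Activin+BMP4, against 0.12, 0.0804 and 0 CPM in untreated cells. The treatments overlapped, and both were above untreated cells, by log2 fold changes of 4.73 ± 0.58 (BMP4, edgeR adjusted p = 9.81e-09) and 4.98 ± 0.58 (Activin+BMP4, adjusted p = 1.87e-09). At 12 h it was called higher than untreated under both treatments. By 96 h it had 0.307, 0.288 and 0.131 CPM with BMP4 and 0.185, 0.167 and 0.139 CPM under Activin+BMP4, with overlap (edgeR adjusted p = 0.484). HOXD13, the 5′-most gene and a limb and hindgut gene, had 1.23, 1.08 and 0.786 CPM with BMP4 at 96 h, and 0.815, 1.17 and 0.522 CPM under Activin+BMP4. These overlapped (log2 fold change 0.30 ± 0.40, adjusted p = 0.554), which does not show that they were equal. HOXD11, which was not tested, had 0.653, 0.793 and 0.295 CPM with BMP4 at 96 h and 1 count with Activin+BMP4, without overlap. The other HOXD genes had 3 to 40 counts over the BMP4 libraries at 96 h.

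**Figure D4:**
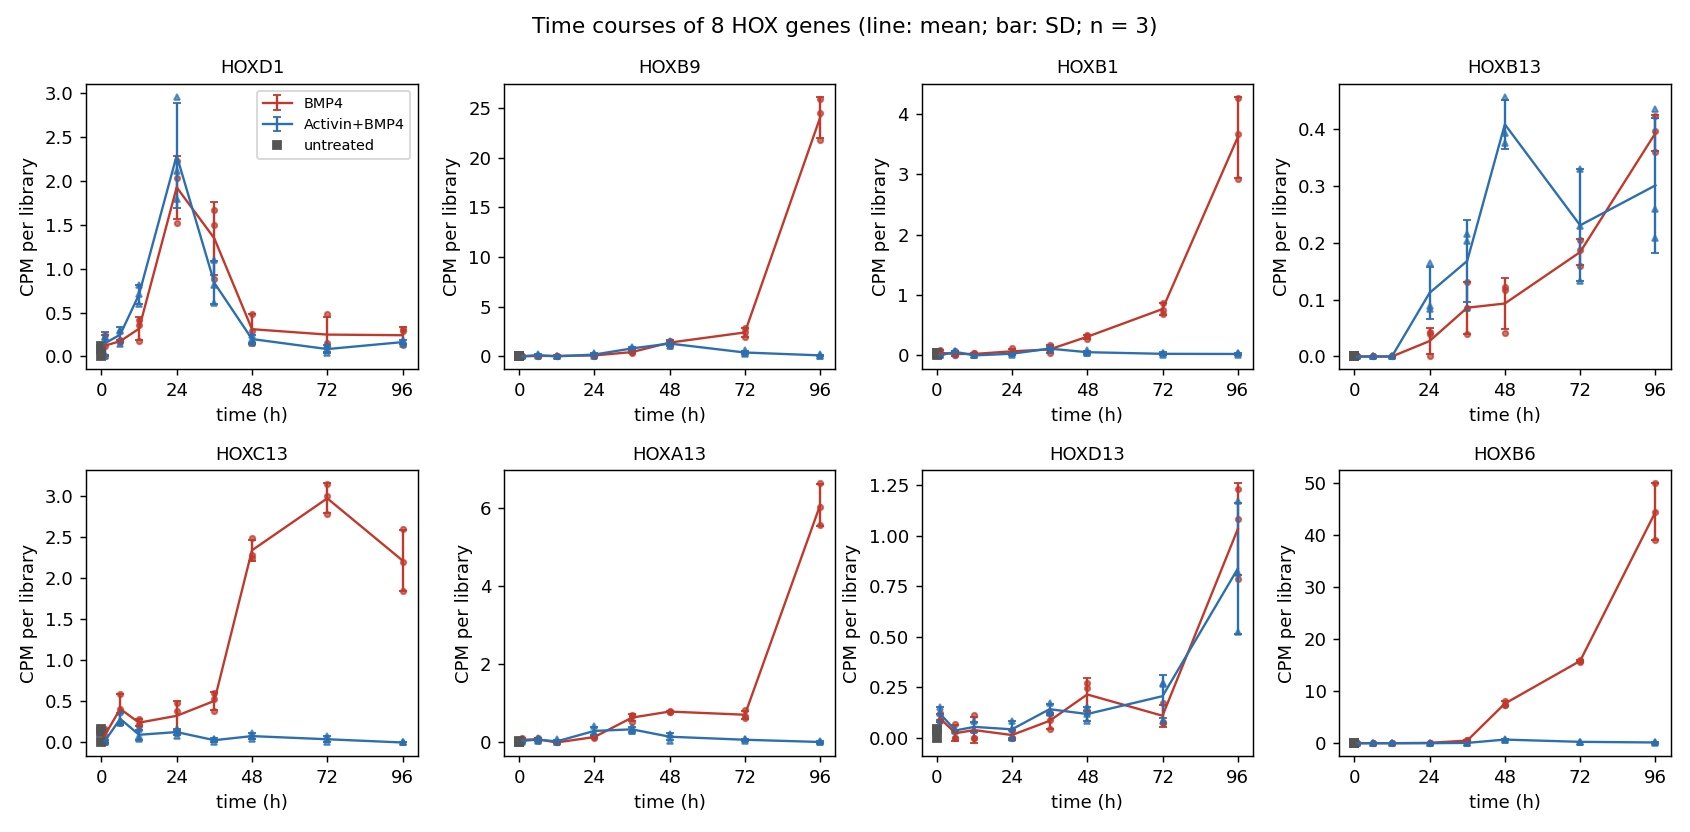
Each panel plots CPM per library against time in hours for 1 of 8 HOX genes, with lines and bars for mean and SD (n = 3). HOXD1 peaks at 24 h under both treatments, HOXB13 is higher with Activin+BMP4 at 48 h, and HOXB9 is higher with BMP4 after 48 h. With BMP4, HOXB6 climbs from 48 h on and HOXC13 has its highest mean at 72 h. HOXD13 rises under both treatments at 96 h.

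Members of paralogue group 13 did not move as a group. Their proteins share the most posterior roles, and the 4 genes lie at the 5′ ends of separate clusters. With BMP4 at 96 h HOXA13 and HOXC13 were called higher than with Activin+BMP4, and HOXB13 and HOXD13 were not. HOXB13, a gene of tail bud and prostate, went the other way at 48 h, with 0.116, 0.122 and 0.0413 CPM with BMP4, against 0.393, 0.457 and 0.375 CPM with Activin+BMP4 (log2 fold change -2.07 ± 0.51, edgeR adjusted p = 0.00149). These are 7 counts against 31, with no overlap. At 96 h it had 0.423, 0.397 and 0.36 CPM with BMP4 and 0.259, 0.435 and 0.209 CPM under Activin+BMP4, with overlap. HOXA13 had 0.814, 0.773 and 0.785 CPM with BMP4 at 48 h, against 0.197, 0.208 and 0.0375 CPM with Activin+BMP4 (log2 fold change 2.41 ± 0.43, adjusted p = 1.24e-05).

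The order in time was set against the paralogue number, as a description across genes that share libraries. Onset was taken as the first time from which a gene was called higher than untreated at that and every later time. With BMP4 it was 12 h for HOXD1, 24 h for HOXA13, HOXB6, HOXB9 and HOXC13, 36 h for HOXA11, HOXB2, HOXB5, HOXB7 and HOXB13, 48 h for HOXB1, HOXB3, HOXB4 and HOXB8, 72 h for HOXA10, and 96 h for HOXA5, HOXA7, HOXA9, HOXC4, HOXC6, HOXC8 and HOXD13. HOXA10 and the genes with onset at 96 h other than HOXD13 passed the filter only through the BMP4 96 h libraries. A late onset was close to fixed for them, and no order is read from it. In cluster B Spearman's rho between onset and paralogue number was -0.47 over 10 genes, so by this rule lower numbers did not have the earlier onset there. HOXB13, among the 10, would not have passed the filter without the BMP4 96 h libraries. Many onsets rest on few counts and so depend on detection. Of the 6 genes called at 24 h, 4 had fewer than 20 counts in both groups together. This held for 5 of 11 called at 36 h and 7 of 17 at 48 h. On level alone, with a limit chosen after the values were seen, the mean stayed at or above 0.5 CPM from 36 h for HOXA13, HOXB6 and HOXC13, from 48 h for HOXB2, HOXB3, HOXB5 and HOXB9, from 72 h for HOXB1, HOXB4, HOXB7 and HOXB8, and from 96 h for 10 others.

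The level of each gene at 72 h relative to 96 h gave another view. In BMP4 cells HOXB2 had 50.2% of its 96 h level at 72 h. HOXB6, HOXB4 and HOXB7 had 35.6%, 34.7% and 32.2%, and HOXB8 and HOXB9 had 10.9% and 10%. HOXC6, HOXC8, HOXA9 and HOXA10 had 1.07%, 2.45%, 1.73% and 2.92%. These last 4 passed the filter on low counts only through the BMP4 96 h libraries, as did HOXA5, HOXA7, HOXA11 and HOXC4. The low 72 h levels of these genes were fixed by that choice, and no order is read from them. HOXD1 (103%) and HOXC13 (134%) were not below their 96 h level at 72 h, HOXB13 had 46.7% and HOXB1 21.2%. HOXD1 had fallen from its 24 h peak by then, and its value compares 21 counts at 72 h with 20 at 96 h. Within cluster B without HOXB13, Spearman's rho between this share and paralogue number was -0.43 over 9 genes. Over the 7 genes HOXB1 to HOXB7 rho was 0.21, so the negative value rests on HOXB8 and HOXB9 and shows no graded order. The sampling times are 24 h apart here, so an order within such a step cannot be seen.

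**Figure D5:**
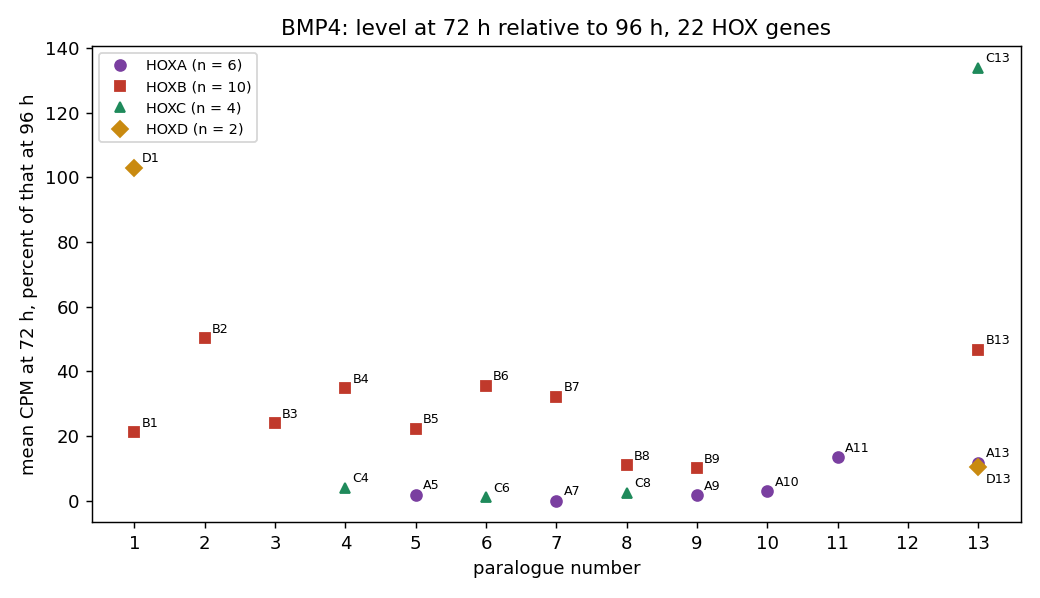
The mean CPM at 72 h with BMP4, as a percent of that at 96 h, is plotted against paralogue number for 22 tested HOX genes, with a symbol per cluster. HOXB2 lies at 50.2%, HOXB8 and HOXB9 at 10.9% and 10%, HOXD1 at 103% and HOXC13 at 134%.

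Between 72 and 96 h, 18 tested members rose in BMP4 cells and 0 fell, against 3.98% and 1.52% of all genes. Among the 18, HOXA5, HOXA7, HOXA9, HOXA10, HOXA11, HOXC4, HOXC6 and HOXC8 passed the filter only through the BMP4 96 h libraries. For these genes a rise up to 96 h was built in, so the count of 18 is a description only. Between 48 and 72 h 9 rose (3.91% of all genes), HOXB1 to HOXB8 among them. In Activin+BMP4 cells HOXB2 rose and 3 members fell between 48 and 72 h, HOXB6 and HOXB9 among them (4.81% and 2.88% of all genes), and HOXD13 rose and HOXB9 fell between 72 and 96 h (2.69% and 1.07%). HOXD13 rose in Activin+BMP4 cells by 2.00 ± 0.48 on the log2 scale, with 22, 35 and 15 counts at 96 h, against 6, 2 and 7 counts at 72 h, and in BMP4 cells by 3.17 ± 0.51.

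Genes called higher than untreated in Activin+BMP4 cells at 96 h were HOXB2, HOXB3, HOXB6, HOXB7, HOXB9, HOXB13 and HOXD13, with HOXC13 lower. HOXB2 was at least 13.8-fold higher, HOXB3 at least 12.6-fold, HOXB13 at least 7.45-fold, HOXB7 at least 5.73-fold, HOXB6 at least 3.44-fold and HOXB9 at least 2.58-fold, since untreated libraries had 0 counts. HOXD13 had a ratio of 31 over 2 untreated counts, with a counting interval of 8.26 to 261. HOXB6 and HOXB9 rest on 12 and 9 counts.

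The partners of HOX proteins were examined in the same comparison. Of 9 TALE genes tested, 3 were called higher with BMP4 than with Activin+BMP4 at 96 h and 2 lower, with a median log2 fold change of -0.02, against a median of 0.005 over all genes and 15.6% of all genes called either way. MEIS1 had 38.3 ± 5.9 CPM with BMP4, against 1.34 ± 0.091 CPM with Activin+BMP4, and MEIS2 had 43.6 ± 2.76 and 2.32 ± 0.151 CPM (log2 fold changes 4.83 ± 0.19 and 4.23 ± 0.20). PKNOX2 was higher by 2.17 ± 0.20, and PBX4 (-1.31 ± 0.29) and MEIS3 (-1.02 ± 0.06) were lower, by edgeR's test. MEIS1 was already higher at 48 h, with 15.9 ± 0.598 CPM with BMP4 and 0.563 ± 0.235 CPM under Activin+BMP4.

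Of 15 tested genes that act upstream of HOX genes or belong to the ParaHox family, out of 17 listed, 9 were higher and 1 lower with BMP4 at 96 h, with a median log2 fold change of 1.47, against 7.62% and 7.95% of all genes and a median of 0.005. CDX2, a direct activator of trunk HOX genes in mouse, had 31.9 ± 4.11 CPM with BMP4, while the Activin+BMP4 libraries held 1 count in all. At 48 h it already had 14 ± 0.695 CPM with BMP4, against 1.11 ± 0.18 CPM under Activin+BMP4. CDX1 had 12.1 ± 0.447 CPM with BMP4 at 96 h, against 0.116 ± 0.0362 CPM with Activin+BMP4, while at 48 h it was at 2.83 to 4.3 CPM with BMP4 and 4.32 to 4.78 CPM under Activin+BMP4. Those ranges did not overlap, and the log2 fold change of -0.42 was too small to be called (edgeR adjusted p = 0.0355). ALDH1A2, which makes retinoic acid, had 11.5 ± 1.38 CPM with BMP4, against 0.113 ± 0.103 CPM. CYP26A1, which breaks retinoic acid down, was the 1 lower gene, with 23.7 ± 1.34 CPM with BMP4, against 573.8 ± 69.1 CPM with Activin+BMP4 (log2 fold change -4.60 ± 0.14). EVX1, which lies beyond HOXA13 next to the cluster, was lower with BMP4 at 48 h (25.3 ± 1.35 and 66.9 ± 2.85 CPM) and higher at 96 h (24.4 ± 3.61 and 1.94 ± 0.871 CPM).

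Chromatin regulators of the clusters were counted in the same way. Of 20 Polycomb genes 1 was called higher (SCMH1, log2 fold change 1.25 ± 0.07) and 1 lower (CBX7, -1.001 ± 0.138) with BMP4 at 96 h, with a median of 0.1. Of 8 trithorax and H3K27 demethylase genes 0 were called by edgeR, with a median of 0.2, although 6 of the 8 had an adjusted p under 0.05 with a smaller fold. With 7.62% of all genes called higher and 7.95% lower, these counts are near the share over all genes and are no result about either list. The largest of these differences was ASH2L at -0.68 ± 0.05 (edgeR adjusted p = 6.42e-16), under the fold required. Of 24 noncoding genes listed in the HOX clusters, 6 were tested and 5 called higher with BMP4 at 96 h. HOXB-AS3 had 3.18 ± 0.41 CPM with BMP4, HOTAIRM1 2.17 ± 0.381 CPM and HOXA-AS3 1.13 ± 0.147 CPM, each with 0 counts with Activin+BMP4. Whether reads were counted by strand is not given in the sources used here, so reads of these and of the HOX genes they overlap cannot be told apart.

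Markers of cell types also differed between the treatments at 96 h, and their course over time was not set against that of the HOX genes. Of all genes tested at 96 h, 7.62% were called higher with BMP4 than with Activin+BMP4 and 7.95% lower. At 96 h the summed level of 9 amnion markers was 1540 to 1755 CPM with BMP4, against 60 to 78.2 CPM with Activin+BMP4, with 7 called higher and 0 lower of 9 tested. That of 10 lateral plate and extraembryonic mesoderm markers was 894.9 to 1029 CPM, against 202.6 to 249.4 CPM, with 7 higher and 1 lower of 9 tested. The amnion and lateral plate lists share a gene, so their sums are not separate. The sum of 9 nascent and paraxial mesoderm markers was 183.9 to 212.9 CPM, against 38.6 to 49.6 CPM, with 7 higher and 0 lower of 8 tested. In this list PAX1 was at 0 in BMP4 cells and MSGN1 at 0 in Activin+BMP4 cells. The sum of 9 definitive endoderm markers was 122.9 to 151.2 CPM, against 3096 to 4117 CPM, with all 9 lower. Markers of hindbrain, neural tube and neural crest, where HOX genes are also used, summed to 25.4 to 34.8 CPM with BMP4 and 53.9 to 61.5 CPM with Activin+BMP4, with 2 higher and 3 lower of 8 tested. The 8 pluripotency markers summed to 3051 to 3237 CPM with BMP4, 3956 to 4334 CPM under Activin+BMP4 and 6801 to 6993 CPM in untreated cells. The part of cell type makeup in the HOX differences was not tested.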

How the data were processed

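RNA of H1 cells was sequenced with a KAPA RNA HyperPrep kit, per the labels' protocols. The deposited table holds whole-number counts per gene, made by the authors. Per the submitters' processing notes, cutadapt 1.5, STAR 2.5.2a, RSEM 1.3.0 and GRCh38 were used, with no roles named. Not given in the sources used here are the annotation, whether counting used strand, and whether these are read counts or rounded RSEM estimates, which split shared reads between genes.

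HOX rows were found by matching Ensembl IDs to symbols. Coordinates and exon lengths came from GENCODE 29. The analysis used edgeR 4.0.16 (R 4.3.3) with its expression filter set by the 17 groups (a count of 10 and a total of 15 as minima), TMM scaling (factors 0.966 to 1.029), 1 mean per group over all 51 libraries, and 28 contrasts: BMP4 versus Activin+BMP4 at 8 times, each treatment versus untreated at 8 times, and 72 h versus 48 h and 96 h versus 72 h in each treatment. Standard errors are the absolute log2 fold change over the square root of the F statistic. For genes called at 24, 36 or 48 h, the change of the treatment difference up to 96 h was also tested. With 0 counts in a group a fold is a bound against 3 counts over the group; with 1 to 3 counts, it is a ratio with a 95% interval. Intervals and bounds cover counting error only, since no molecular identifiers are given. Values per library are printed for up to 3 genes per cluster with the highest mean, genes called by 24 h or called lower between the treatments, and genes called in Activin+BMP4 at 96 h; others follow where a comparison turns on them. From each other list, called genes with the largest change at 96 h were named, and a few more after their values were seen. Promoter windows came from RefSeq. The script was tested on simulated data. Alternatives were RLE factors, no scaling, other filters, DESeq2 1.42.0, fits of only the groups compared, a replicate block and leaving out each library. Members and lists were chosen with earlier results of these data known. Some genes enter the fits, counts and sums but are not reported here by name.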

Additional observations from a re-analysis of the deposited data

Results flagged for a closer look

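The difference between BMP4 and Activin+BMP4 cells was compared between times for 14 cases in which a HOX gene was called at 24, 36 or 48 h, by a test of the change in log2 fold change up to 96 h in edgeR's quasi-likelihood framework. It changed in 10 of the 14 cases at a Benjamini-Hochberg adjusted p under 0.05, always towards a higher level with BMP4. The share over all genes was not computed for this test, so the count is a description of these cases only. The cases are not independent, since HOXB2, HOXB6 and HOXC13 recur and all share the 96 h libraries. HOXA11 and HOXB13 would not have passed the filter without the BMP4 libraries of 96 h. From 36 to 96 h the log2 fold change grew by 5.19 for HOXB6 and by 4.88 for HOXC13. From 48 to 96 h it grew by 6.11 for HOXA13, 4.55 for HOXB1, 1.45 for HOXB2, 2.86 for HOXB3, 6.53 for HOXB5, 4.82 for HOXB6, 2.44 for HOXB13 and 4.02 for HOXC13. HOXB13 was called lower at 48 h and not called at 96 h. Where a group had 0 or few counts, the size of these values depends on how such counts are treated.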

How the results depend on the processing

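The count of HOX genes called in BMP4 against Activin+BMP4 cells at 96 h was 20, and it was 16 with DESeq2, 28 with no filter, 17 with a stricter filter, and 20 to 23 with each library left out in turn. At 72 h it was 14 in every leave-one-out fit. The filter was set anew in each such fit, which could admit members that the main fit did not test. For BMP4 against untreated at 96 h up to 26 members were called in this way, where the main fit tested 23. HOXA5, HOXA7, HOXC4 and HOXC8 lost their call at 96 h with DESeq2 (adjusted p = 0.532, 0.206, 0.471 and 0.408). HOXB13 at 48 h stayed between -2.29 and -1.74 on the log2 scale, called in every alternative; these alternatives, and those for HOXB6 at 24 h, were chosen after seeing the data.

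Counts that moved by over 1.5 times were these. For BMP4 against Activin+BMP4 the 24 h count of 1 was 0 with DESeq2, with no filter and in a fit of only the groups compared, and 0 to 1 without single libraries. HOXB6 lost that call in 7 of 12 alternatives. A fit of only the groups compared has far fewer samples: it gave 1 at 36 h for BMP4 against Activin+BMP4 (5 in the fit of all groups). For BMP4 against untreated it gave 1 at 24 h, 2 at 36 h and 7 at 48 h (6, 11 and 17 in the fit of all groups). For Activin+BMP4 against untreated it gave 1, 3, 2 and 2 at 24, 36, 48 and 96 h (5, 7, 10 and 8). Within Activin+BMP4 cells it gave 2 for 72 h over 48 h (4) and 1 for 96 h over 72 h (2). DESeq2 gave 1 for that last step and 1 for Activin+BMP4 against untreated at 6 h (2). Leaving out single libraries gave, for BMP4 against untreated, 0 to 1 (1 h), 1 to 2 (6 h), 0 to 2 (12 h) and 3 to 5 (24 h). For Activin+BMP4 it gave 1 to 3 against untreated at 6 h and 1 to 3 for 96 h over 72 h.

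With the replicate number as a block, 20 HOX genes were called at 96 h. Same-numbered libraries did not deviate together (correlations of -0.121 to 0.144 over 84 pairs, 4 over 0.1), so the numbers do not pair the samples.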
